A study of Mus musculus with 16 samples.

Results

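The genes described here are the olfactory receptor genes that had reads in mouse skeletal muscle. They were chosen by name alone, as every gene of the muscle expression table whose symbol starts with Olfr, and there were 43 of them among 21011 genes. The table of cortical bone holds 38933 genes, of which 1355 are Olfr genes, and all 43 are among them. The names hold up against the newer GENCODE M39 annotation, which lists all 43 as olfactory receptors under the current Or symbols. By their biotype, 39 are protein coding and 4 are pseudogenes.

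The libraries came from female C57BL/6 mice, aged 18 months when treatment began, that received either BAY2416964 (BAY), an inhibitor of the aryl hydrocarbon receptor (AhR), or its vehicle (VEH). AhR is a transcription factor activated by dioxins and by tryptophan metabolites such as kynurenine. Mice were gavaged 5 days per week over 8 weeks before the tissues were taken, with BAY at 30 mg/kg or with the carrier of ethanol, Solutol and water. RNA was taken from 1 tibialis anterior (TA) per mouse and from cortical bone shafts that had been digested with collagenase after the marrow cells were removed, with 4 BAY-treated and 4 VEH-treated libraries in each tissue. The column of muscle VEH replicate 3 is named as a replacement, and the sources do not say whether bone and muscle came from the same mice.

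Olfactory receptors are G protein-coupled receptors that sit in the cilia of sensory neurons in the nose. There each neuron uses a single receptor gene, and the receptor signals through the G protein subunit Gnal and adenylyl cyclase 3 (Adcy3) to a cyclic nucleotide-gated channel. A few receptors are also used outside the nose, among them Olfr78 and Olfr558, which respond to short-chain fatty acids and are known from vascular smooth muscle. The genes lie in dense clusters, some of which hold near-identical copies. They have a short coding exon and often long untranslated exons. Reads assigned to one gene can therefore also fit a neighbor, a pseudogene or another transcript.

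Values are given as reads, recovered from the deposited log2 values by the step that 1 read makes in each library, and as CPM (reads scaled to the library total). The reads counted on genes ranged from 6131920 to 9262388 in muscle and from 930306 to 6951916 in bone, and 3 reads, the smallest amount taken as above counting error, correspond to 0.324 to 0.489 CPM in muscle and 0.432 to 3.22 CPM in bone. Intervals and floors cover counting error only. The defining muscle genes (7 of 7 found) summed to 95097 to 163582 CPM in muscle. In bone all 8 osteoblast and osteocyte genes were found at 1376 to 29494 CPM, but the same 7 muscle fiber genes ranged from 24.8 to 32022 CPM there. In muscle 5 of 5 adipocyte genes summed to 2.79 to 193 CPM in VEH-treated and 1.93 to 4.21 CPM in BAY-treated mice, with the highest sum in VEH replicate 3. Of 9 genes listed for olfactory sensory neurons, 2 (Gnal and Omp) were in the muscle table.

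Of the 43 genes, 20 had reads in most muscle libraries. At least 1 read was found in all 8 libraries for 11 genes, in 7 for 4 genes and in 6 for 5 genes, so that 46.5% reached 6 of 8, against 86.7% of all genes in the table. The other 23 had reads in 2 to 5 libraries, with never more than 7 reads in a library and a median of 6 reads over all 8. No gene of the table has fewer than 5 reads in total, so the genes at the low end are those that just reached this limit. In all, 21 of 43 (48.8%) had under 10 reads over the 8 libraries, against 10.5% of all muscle genes. Asking for at least 3 reads in 6 of 8 libraries left 9 genes.

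**Figure D1:**
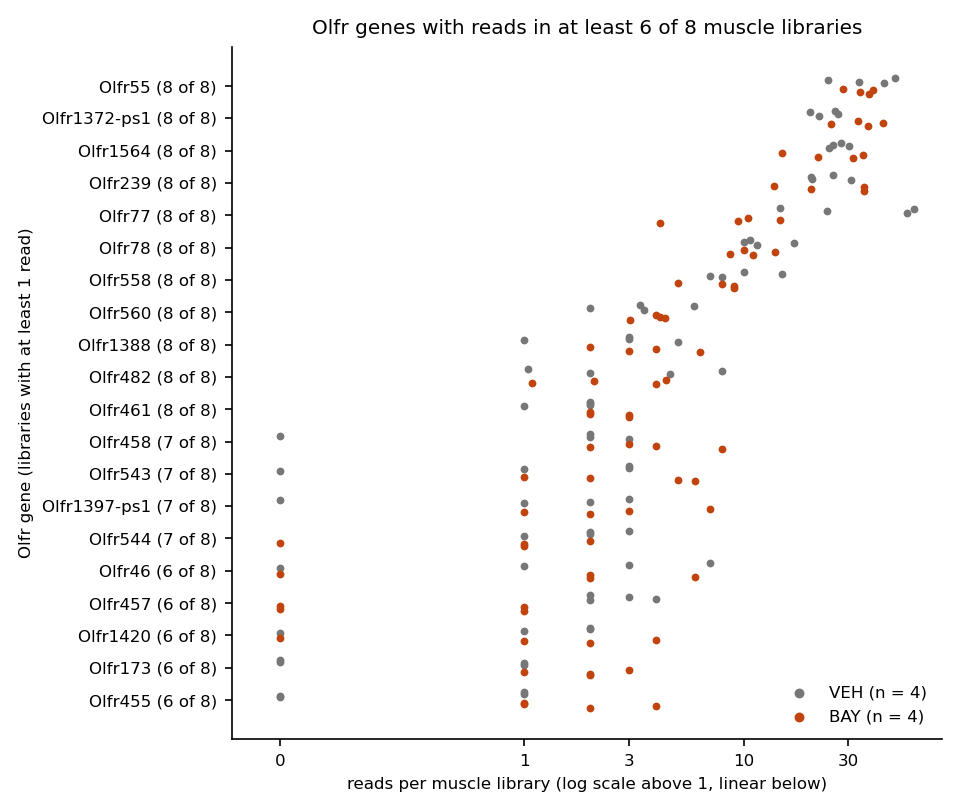
Reads per muscle library (x axis, logarithmic above 1 and linear below) for the 20 Olfr genes with at least 1 read in 6 or more of 8 libraries, with each dot 1 VEH-treated (gray) or BAY-treated (orange) mouse. The upper 7 genes stay at 4.17 reads or more in every library, the lower 9 have a library at 0, and the gray and orange dots of Olfr77 are shifted against each other.

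The genes with the most reads were few. Olfr55, Olfr1372-ps1, Olfr1564, Olfr239 and Olfr77 held 66.4% of the reads of the 43 genes, and 7 genes had a mean of at least 1 CPM. The highest mean was 4.73 CPM, for Olfr55. All 43 together came to 201 to 231 reads in VEH-treated and 166 to 256 reads in BAY-treated muscle, or 26.2 ± 1.88 and 29.0 ± 4.06 CPM (SD, n = 4 each). Their share of all counted reads was therefore between 0.00236% and 0.00330%, and the groups overlapped.

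Overlap and shared sequence were frequent among these genes. In GENCODE M39, exons overlapped those of another gene for 14 of the 43 (32.6%) and for 7 of the 11 with reads in 8 libraries (63.6%), against 7.63% of the 1310 other Olfr genes matched by identifier. At least 200 transcript bases at 95% identity or more were shared with a gene that is no Olfr gene by 16 of 43 (37.2%), 5 of 11 (45.5%) and 11.4% of the others. The same stretch was shared with another Olfr gene by 18 of 43 (41.9%), 6 of 11 (54.5%) and 29.3%, and 9 of 43 (20.9%), 5 of 11 (45.5%) and 6.49% lay inside the span of another gene. At least 1 of these features was found for 32 of 43 (74.4%), for 11 of 11 and for 39.5% of the others. These shares describe the M39 models, some of which reach further than the models that were counted, and they were not tested. Exon lengths differed as well, with a median of 3806 bases against 2630.5 in the other Olfr genes.

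**Figure D2:**
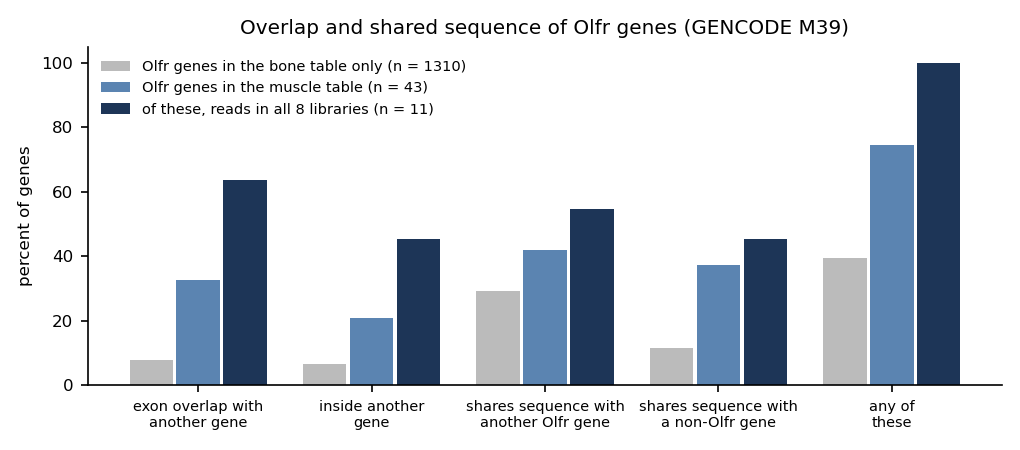
Percent of genes (y axis) with each feature of overlap or shared sequence (x axis) among the 1310 other Olfr genes (light gray), the 43 genes of the muscle table (blue) and the 11 of these with reads in all 8 muscle libraries (dark blue). Each feature is more frequent in the blue bars than in the gray ones, and the dark blue bar reaches 100% for any of them.

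The Partek E/M step splits a read that fits several genes into fractions, and these fractions remain visible in the recovered reads. Of the 43 genes, 8 had a fractional value in at least 1 library, and all 8 are among the 11 with reads in every library. The other 3 of the 11, Olfr1372-ps1, Olfr558 and Olfr461, had whole reads only.

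Olfr55, Olfr239 and Olfr1564 (Or10h1b, Or10h1 and Or10h5 in M39) form 1 cluster of near-identical receptors on chromosome 17 (mm39, 33387421-33399727 on the plus strand, 33410276-33421480 on the plus strand and 33430180-33440664 on the minus strand). All 3 lie inside the span that M39 gives to Zfp955a, a zinc finger gene on the minus strand (33361836-33474119). The model of Zfp955a in the tables covers only 33458692-33474119 and does not reach the receptors. Over 945 aligned bases of the coding exon, Olfr55 and Olfr239 were 98.9% identical, Olfr55 and Olfr1564 96.1%, and Olfr239 and Olfr1564 96.0%. The stretch of 90 coding bases in which Olfr55 and Olfr239 differ most is shown because differences that tell the genes apart lie close together there, with capitals at the 8 bases, of 42 in all, that are not the same in all 3 (GRCm39, chr17:33395867-33395956, plus strand; chr17:33418513-33418602, plus strand; chr17:33434750-33434839, minus strand).
Olfr55: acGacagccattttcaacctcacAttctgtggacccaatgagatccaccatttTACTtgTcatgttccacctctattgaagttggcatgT
Olfr239: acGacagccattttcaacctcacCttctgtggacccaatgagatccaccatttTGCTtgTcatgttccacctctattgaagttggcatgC
Olfr1564: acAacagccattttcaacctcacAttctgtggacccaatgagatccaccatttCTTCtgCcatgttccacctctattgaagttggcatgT
Elsewhere the coding exons hold up to 343 bases in a row that are the same in Olfr55 and Olfr239.

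Olfr55 had 43.6, 33.4, 24.3 and 48.9 reads in VEH replicates 1 to 4 and 37.4, 34.0, 38.9 and 28.3 reads in BAY replicates 1 to 4. Olfr239 had 30.9, 20.6, 20.3 and 25.4 reads in VEH and 35.2, 20.3, 35.2 and 13.7 reads in BAY. Olfr1564 had 24.6, 30.1, 25.5 and 27.8 reads in VEH and 31.4, 21.7, 34.9 and 14.99 reads in BAY. Every library had reads of all 3, and the groups overlapped for each. BAY replicate 4 had the fewest reads of Olfr239 and Olfr1564. The log2 fold changes, BAY over VEH, were 0.16 (SE 0.27), 0.26 (SE 0.33) and 0.10 (SE 0.30), with limma adjusted P values of 0.854, 0.815 and 0.936, and none was called. Zfp955a, by the shorter model of the tables, had 71.7, 51.2, 71.6 and 97.1 reads in VEH and 79.7, 47.6, 80.8 and 50 reads in BAY. How much of the signal in the 3 receptors came from a longer transcript of this gene or from each other was not tested.

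Olfr1372-ps1 (chromosome 11, 52045549-52058986, minus strand), a pseudogene, is the gene with the most reads that were all whole. Its span in the tables is exactly that of the long noncoding RNA Gm67348 in M39, where the receptor pseudogene itself (Or2y7) covers only 52046177-52047110. Reads counted under this name can thus lie anywhere in the 9812 exon bases of Gm67348. It had 22, 27, 20 and 26 reads in VEH replicates 1 to 4 and 37, 25, 43 and 33 reads in BAY replicates 1 to 4. On the CPM scale the BAY libraries all lay above the VEH libraries, at 4.84 ± 0.630 against 2.90 ± 0.696 CPM (SD, n = 4 each). The difference of 0.76 on the log2 scale (SE 0.25) did not reach a fold change of 2, and limma gave an adjusted P of 0.362. The exact permutation test, two-sided, gave P = 0.0286, the smallest possible with 4 against 4 libraries.

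Olfr78 and Olfr558, known in vascular smooth muscle as receptors for short-chain fatty acids, were both found in every library. They lie in the same cluster on chromosome 7, with Olfr33 between them (102387718-102408678, minus strand, and 102351422-102361271, plus strand). Olfr78 had 11.5, 17, 10.04 and 10.6 reads in VEH and 10.96, 8.64, 13.9 and 10 reads in BAY. Olfr558 had 8, 7, 15 and 10 reads in VEH and 9, 9, 8 and 5 reads in BAY. The groups overlapped widely for both. Means were 1.52 ± 0.580 and 1.53 ± 0.180 CPM for Olfr78, and 1.18 ± 0.315 and 1.11 ± 0.325 CPM for Olfr558 (SD, n = 4 each, VEH first). The log2 fold changes were 0.07 (SE 0.40) and -0.10 (SE 0.47), with limma adjusted P values of 0.987 and 0.978. Neither was called.

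Olfr558 shares no stretch of 200 bases with another transcript, all its reads were whole, and its only overlap is 101 exon bases with the pseudogene Gm45688, which is not in the muscle table. Olfr78 and Olfr560 (Or51f23b), in contrast, share 1038 exon bases on the same strand, of which none codes for Olfr78 and 157 belong to the coding sequence that M39 gives for Olfr560. Olfr560 had 3.52, 2, 5.96 and 3.36 reads in VEH and 3.04, 4.36, 4.15 and 4 reads in BAY, and the groups overlapped. Per kilobase of exon, Olfr558 stood at 0.347 ± 0.0906 CPM, Olfr78 at 0.247 ± 0.0647 CPM and Olfr560 at 0.144 ± 0.0417 CPM (SD over 8 libraries), and the ranges of Olfr558 and Olfr78 overlap. The 5 listed smooth muscle and vessel genes were all present, and their summed level was 169 to 273 CPM in VEH-treated and 186 to 249 CPM in BAY-treated muscle.

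Olfr77 (Or7d10, chromosome 9, 19828161-19840420, plus strand) had the smallest P value of the 43 genes and was lower with BAY. It had 55.2, 24.0, 59.4 and 14.6 reads in VEH replicates 1 to 4 and 4.17, 9.38, 14.6 and 10.4 reads in BAY replicates 1 to 4. VEH replicates 1 and 3 stood far above all others, and VEH replicate 4, at 1.74 CPM, fell below BAY replicate 3, at 1.88 CPM, so the groups overlapped. Means were 4.48 ± 2.33 CPM in VEH-treated and 1.36 ± 0.557 CPM in BAY-treated muscle (SD, n = 4 each), or 3.29-fold lower with BAY. Limma gave a log2 fold change of -1.66 (SE 0.49), which passed the study's rule (an unadjusted P below 0.05 together with a 2-fold change or more). The limma adjusted P over all genes was 0.319 (0.114 to 0.679 over the alternatives). The exact permutation test gave P = 0.0571. In whole muscle, fewer cells with a transcript and fewer transcripts per cell cannot be told apart.

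Olfr77 is among the 16 genes that share at least 200 transcript bases with a gene that is no Olfr gene, and its reads were fractional in 7 of 8 libraries. How many of them came from the receptor transcript was not tested. The adipocyte genes, whose summed range is given above, were highest in VEH replicate 3, while Olfr77 stood at 6.43 CPM in VEH replicate 1 and 6.42 CPM in VEH replicate 3. Among them Plin1, which coats lipid droplets, had 20, 10, 351 and 11 reads in VEH and 2, 6, 7 and 13 reads in BAY and was called lower, the only one of the 5 to be called. Without VEH replicate 3 the log2 fold change of Olfr77 was -1.42, and it was still called. Whether the adipocyte content of the samples plays a part in the Olfr77 values was not tested.

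**Figure D3:**
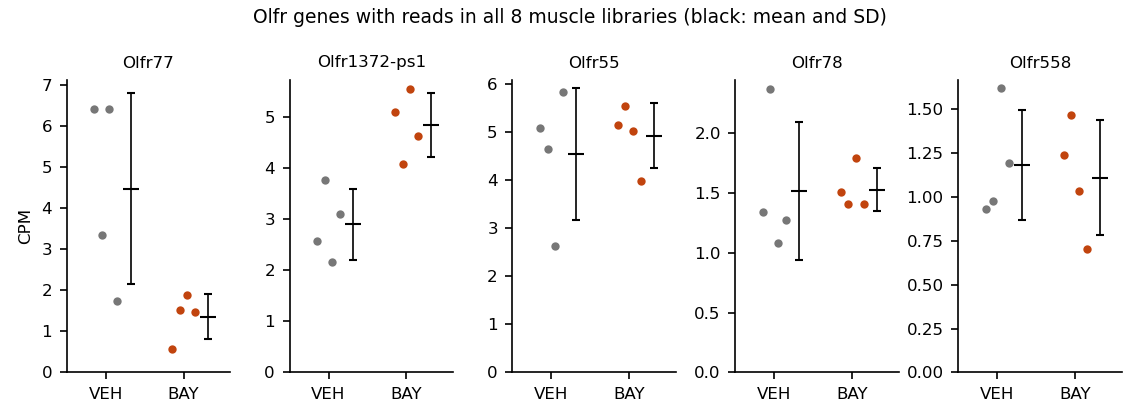
CPM (y axes, each from 0) of 5 Olfr genes in the 4 VEH-treated (gray) and 4 BAY-treated (orange) muscle libraries, with mean and SD as black marks. The BAY libraries of Olfr1372-ps1 all lie above its VEH libraries, Olfr77 is lower with BAY apart from 1 VEH library that falls below the highest BAY library, and the groups of Olfr55, Olfr78 and Olfr558 overlap.

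The 3 remaining genes with reads in every library were low. Olfr482 (Or5p58, chromosome 7, 107692206-107696793, minus strand) had 4.63, 2, 8 and 1.04 reads in VEH and 4, 1.09, 2.08 and 4.44 reads in BAY. Its exon carries 1385 bases that are 98.7% identical, on the same strand, to Ramac, a cofactor of the mRNA cap methyltransferase. Within it lies the 357-base pseudogene Gm4199, which differs from the Ramac transcript at 1 base, shown in capitals below and lying outside the receptor's coding sequence (GRCm39, chr7:107693339-107693368, minus strand; chr7:81418274-81418303, plus strand).
copy in Olfr482: cacaaccagcggcctccatatggttactaC
Ramac: cacaaccagcggcctccatatggttactaT
Ramac had 12.0 to 37.5 reads per library and was not called (limma adjusted P = 0.840).

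Olfr461 (Or9a7, chromosome 6, 40519105-40531984, minus strand) had 1, 2, 2 and 2 reads in VEH and 3, 3, 2 and 2 in BAY. In M39 its exons overlap those of Ssbp1, which encodes the mitochondrial single-stranded DNA-binding protein, over 2405 bases on the opposite strand. Ssbp1 had 43 to 84 reads, counted on a model that ends at 40461634 and does not reach Olfr461. The library kit keeps strand, but the sources used here do not say whether the counting used it, and without it the reads of such a pair cannot be told apart. Olfr1388 (Or2y16, chromosome 11, 49327451-49336930, plus strand) had 5, 1, 3 and 3 reads in VEH and 6.35, 3, 4 and 2 reads in BAY, and 97 other genes share at least 200 bases of its transcript. None of the 3 was called, their log2 fold changes being 0.00 (SE 0.92), 0.78 (SE 0.91) and 0.68 (SE 0.82).

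Across the 43 genes, 4 were called by this rule, 3 lower and 1 higher in BAY-treated muscle. Of all 21011 genes 2.43% were called, 1.09% lower and 1.33% higher. No adjusted P was under 0.05 among all genes, the smallest being 0.184. Beside Olfr77, the called genes were Olfr457 and Olfr33, lower, and Olfr173, higher, and each of these had a library at 0. Over the alternatives in which they were tested, the call was lost in 12 of 16 for Olfr173 (among them without VEH replicate 3 or 4 or any 1 BAY replicate), in 8 of 16 for Olfr457 (with log2(CPM + 1), with at least 10 reads, and without any 1 VEH replicate or BAY replicate 2 or 4) and in 1 of 15 for Olfr33. Olfr33 (Or51a39) had 1, 2, 1 and 2 reads in VEH-treated and 0 in every BAY-treated library, which puts both groups under the 3-read floor. Olfr457 (Or2r3) had 2, 4, 3 and 2 reads in VEH and 1, 0, 1 and 0 in BAY. Olfr173 (Or5k1) had 1, 1, 0 and 0 reads in VEH and 2, 2, 1 and 3 in BAY, and in M39 its exons overlap those of Cldnd1, a claudin domain gene, over 643 bases on the opposite strand. The 52 to 134 reads of Cldnd1 were counted on a model that ends at 58554614, before Olfr173 (58615570-58620631).

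Summed over each group, Olfr457 fell from 11 to 2 reads, a ratio of CPM of 0.215 with an exact 95% interval for counting error of 0.0231 to 0.984, and Olfr173 went from 2 to 8 reads, a ratio of 4.73 (0.943 to 45.7). Olfr33 went from 6 to 0 reads, for which the interval of the ratio was 0 to 1.0033. The exact permutation P was 0.0286 for Olfr457, 0.0571 for Olfr173 and 0.0286 for Olfr33, and the limma adjusted P was 0.480, 0.504 and 0.342. All 3 genes reached the 5-read limit of the muscle table only through the group where they are high. Their intervals and P values therefore draw on reads that this limit selected and are given as description only. The fitted fold changes of these 3 depend on the offset of 0.0004 CPM and are not given as sizes. With a pseudocount of 1 CPM, or with only genes of at least 10 reads tested, Olfr77 was the single Olfr gene called. Calls over all genes tested were then 52 and 328.

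Groups did not overlap for 4 of the 43 genes, Olfr1372-ps1 and Olfr455 with BAY higher and Olfr457 and Olfr33 with BAY lower, beside 5.73% of all genes. Olfr455 (Or10ac1) had 0, 0, 1 and 1 reads in VEH and 2, 4, 1 and 1 in BAY, so this order rests on single reads. Like Olfr457 and Olfr33, it reached the 5-read limit of the table only through the group where it is high. Mean CPM was higher with BAY for 32 of 43 genes (74.4%) beside 56.4% of all genes. The median log2 fold change was 0.42 beside 0.06 over all genes, and on the log2(CPM + 1) scale, which weighs single reads less, it was 0.09 beside 0.04. Of the 11 genes with reads in every library, 8 were higher and 3 lower with BAY by mean CPM.

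The genes with reads in 6 or 7 libraries had at most 8 reads in any of them. Olfr458 (Or2r11), which is 95.2% identical to its neighbor Olfr457 over 1088 bases, had 3, 2, 0 and 2 reads in VEH and 8, 2, 4 and 3 in BAY. Olfr543 and Olfr544 (Or55b3 and Or55b4), both inside the noncoding gene Gm38627, had 0 to 6 and 0 to 3 reads, and Olfr544 is known outside the nose as a receptor for azelaic acid in fat and liver. Olfr1397-ps1 lies within Cep112, which had 8 to 27 reads, and itself had 0 to 7 reads. Olfr46, with 0 to 7 reads, shares 200 bases or more with 110 other genes that are no Olfr genes, and Olfr1420 had 0 to 4 reads. Groups overlapped for all 6.

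By position, chromosome 7 held 15 (34.9%) against 21.0% of the Olfr genes in the bone table, and chromosome 2 held 2 (4.65%) against 26.2%. Olfr16, known as MOR23 and studied in muscle regeneration, is not in the muscle table. Of the 43 genes, 11 had none of the features of overlap or shared sequence. These 11 include Olfr455, with reads in 6 libraries, and 10 genes in 2 to 5 libraries with 5 to 8 reads in total (Olfr856-ps1, Olfr1310, Olfr1349, Olfr267, Olfr521, Olfr756-ps1, Olfr1406, Olfr49, Olfr692 and Olfr704).

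Genes of the olfactory machinery that other tissues also use were counted in the same muscle libraries, and those specific to sensory neurons were few. Of 14 genes of the olfactory signal cascade, 8 were in the table, and none was called. Gnal, the G protein subunit of the cascade, had 5.25, 9.50, 8.54 and 3 reads in VEH and 6.74, 7, 11.2 and 2.66 reads in BAY. Adcy3, the cyclase of the cascade, had 9.98, 8.75, 38.1 and 10.04 reads in VEH and 9, 4, 20.3 and 13.3 reads in BAY, and its highest library, VEH replicate 3, was also the highest for the adipocyte genes. Both genes overlapped between the groups. Omp, the marker of mature sensory neurons, had reads in 3 libraries, with 3 reads in VEH replicate 3 and 2 and 3 reads in BAY replicates 1 and 3. Cngb1, a subunit of the olfactory channel, had 0, 3, 4 and 2 reads in VEH and 1, 2, 6 and 3 reads in BAY, with overlapping groups. The phosphodiesterase Pde1c had 3 to 15 reads, and Gnb1, Pde4a and Ric8b, which many tissues use, had 138 to 315, 307 to 444 and 120 to 268 reads. The other 6 genes, namely the channel subunits Cnga2 and Cnga4, the chloride channel Ano2, the subunit Gng13, Slc24a4 and Stoml3, were not in the muscle table.

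Of 9 genes for receptor trafficking and choice, 7 were in the table and none was called. Rtp1 and Rtp2, which carry olfactory receptors to the cell surface, were not in it. Lhx2, a factor that the receptor genes need in neurons, had 0 to 2 reads per library. Reep1, Ebf1, Ldb1, Kdm1a and Atf5, which many tissues use, had 74 to 400 reads per library.

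In bone the same 43 genes had far more CPM, and so did the rest of the family. Olfr genes together took 0.0513%, 2.92%, 0.544% and 2.24% of the reads in VEH replicates 1 to 4 and 1.20%, 1.03%, 1.04% and 3.52% in BAY replicates 1 to 4. The number of Olfr genes with at least 1 read was 694 in VEH replicate 1 and between 1294 and 1342 in the other 7 libraries, of 1355. The muscle table, in contrast, holds 43. VEH replicate 1, the deepest bone library, was the lowest, and BAY replicate 4, the shallowest, was the highest.

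To set these levels against a background, 643 genes of 5 families that bone is not known to use (vomeronasal receptors Vmn1r and Vmn2r, trace amine receptors Taar, bitter taste receptors Tas2r and hair keratin-associated proteins Krtap) were taken as reference genes. Their median per library was 0, 5.23, 0.937 and 3.94 CPM per kb of exon in VEH replicates 1 to 4 and 1.65, 1.58, 1.89 and 7.76 in BAY replicates 1 to 4. The medians of the 43 genes were 0.237, 8.94, 1.65 and 6.75 in VEH and 3.79, 3.55, 3.64 and 11.4 in BAY. Both sets were lowest in VEH replicate 1 and highest in BAY replicate 4, and in each library the median of the 43 lay between the median and the 95th percentile of the reference genes. Whether these reads came from genomic DNA in the RNA was not tested. Bone and muscle RNA were extracted by different methods, and per-kb values are compared only within bone.

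**Figure D4:**
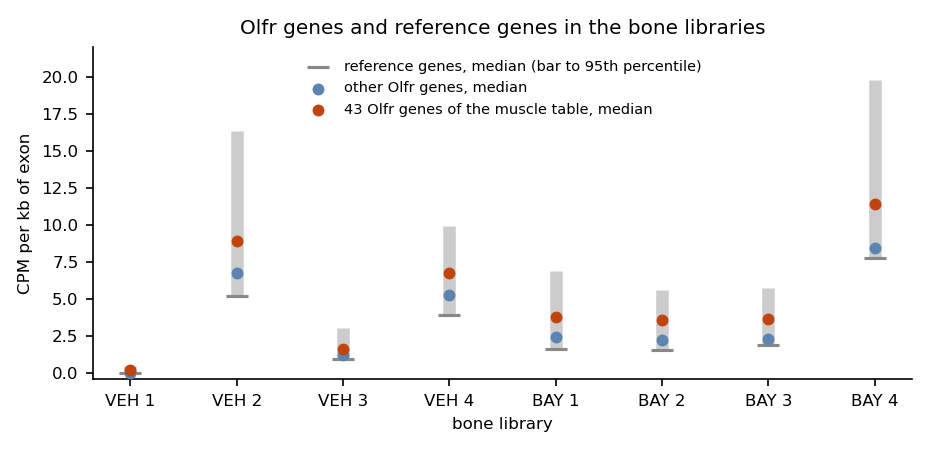
CPM per kb of exon (y axis) in each bone library (x axis), as the median of the reference genes (gray dash, with a bar up to their 95th percentile), of the other Olfr genes (blue) and of the 43 Olfr genes of the muscle table (orange). All 3 are near 0 in VEH 1 and highest in BAY 4, and the orange dots stay within the gray bars.

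Over the 8 bone libraries the median of the 43 genes was 4.00 CPM per kb, against 2.71 for the other Olfr genes, 1.95 for the reference genes and 2.34 for all genes with a known length. The 95th percentile of the reference genes was 6.10, and 11 of the 43 genes (25.6%) exceeded it, against 6.87% of the other 1310 Olfr genes and 10.5% of all genes. The 11 were Olfr1372-ps1 (77.2), Olfr458 (16.1), Olfr1397-ps1 (11.8), Olfr521 (11.6), Olfr1388 (8.92), Olfr544 (8.85), Olfr543 (8.23), Olfr784 (8.07), Olfr1417 (7.10), Olfr560 (6.66) and Olfr1349 (6.46), each in CPM per kb. The next below was Olfr46 at 5.35. Of the 11 genes with reads in every muscle library, 3 (27.3%) are among them, namely Olfr1372-ps1, Olfr1388 and Olfr560. Olfr55, Olfr239, Olfr1564, Olfr77, Olfr78 and Olfr558, all prominent in muscle, lay between 2.43 and 4.94, within the range of the reference genes.

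Few genes were above the reference genes in library after library. Compared with the 95th percentile within each library, Olfr1372-ps1 and Olfr1397-ps1 were higher in 8 of 8 libraries (Olfr1372-ps1 in 6 with the exon length of Gm67348), Olfr458 in 7 and Olfr784 in 6, while 26 of 43 were higher in none. Olfr1372-ps1 had 41, 184, 91 and 97.5 reads in VEH and 193, 177, 113 and 129 reads in BAY. With the exon length of Gm67348 in place of the 934 bases of the pseudogene its bone value was 7.35 instead of 77.2, above the limit but below 7 of the other genes. Olfr1397-ps1 had 17, 31, 26.5 and 26 reads in VEH and 19, 14, 26 and 33 reads in BAY, and it lies within Cep112 without touching the exons of that gene. Olfr458 had 10, 45, 25.6 and 40 reads in VEH and 86.7, 70, 34 and 27 reads in BAY. Groups overlapped for all 3.

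**Figure D5:**
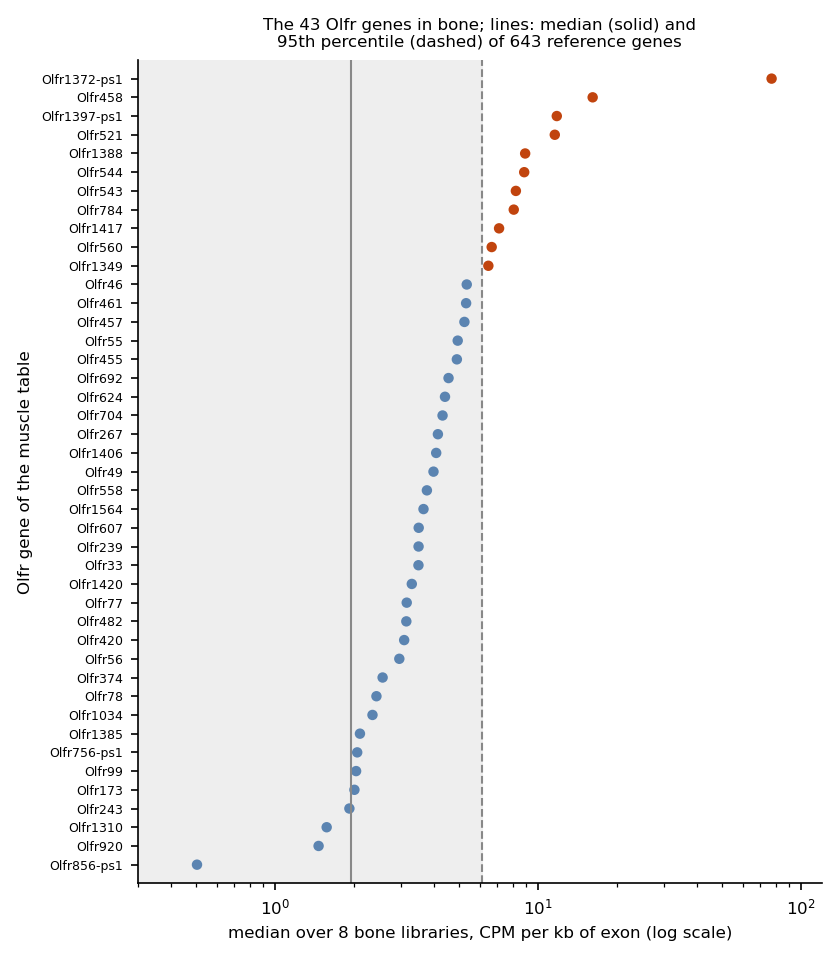
Median over 8 bone libraries of CPM per kb of exon (x axis, logarithmic) for each of the 43 Olfr genes (y axis), with the median (solid line) and 95th percentile (dashed line) of the 643 reference genes. The 11 orange genes exceed the dashed line at 6.10, with Olfr1372-ps1 at 77.2 (7.35, below 7 other genes, with the exon length of Gm67348), and 4 genes lie below the solid line at 1.95.

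BAY against VEH gave no call among the 43 genes in bone on the deposited log2 values, and 9 calls by limma voom on recovered reads, the method that the paper names, beside 3.68% of all genes. On the deposited values 3 of the 43 were called without VEH replicate 2, beside 1116 of all 38933 genes. Without a trend in eBayes 1 of the 43 was called, beside 408 of all genes. In the whole family 3 of 1355 Olfr genes (0.221%) were called beside 0.64% of all genes. Of these, 1 was lower (Olfr1483-ps1, beside 0.095% of all genes) and 2 were higher (Olfr247 and Olfr416-ps1, beside 0.545%). None of them is in the muscle table, and none had more than 8.62 reads in a library. The smallest limma P among the 43 was 0.0679, with an adjusted P of 0.887. Mean CPM was higher with BAY for 37 of 43 genes beside 67.7% of all bone genes, but for 16 of 43 without VEH replicate 1 (37.9% of all genes) and 12 of 43 without BAY replicate 4 (29.4%), so this direction rests on either library. With any other library left out it was 23 (without VEH replicate 3) to 43. The log2 fold changes were positive for all 43 (for 33 with median centring or quantile normalization and 23 without VEH replicate 1), with a median of 1.11 beside 0.84 over all genes, and without VEH replicate 1 the median was 0.03 beside -0.09. In the same comparison the median log2 fold change of the 7 muscle fiber genes was 3.54, their sum ranging from 24.8 to 6578 CPM in VEH and from 63.3 to 32022 CPM in BAY, and that of the 8 osteoblast and osteocyte genes was -1.35, at 1376 to 29494 and 1651 to 21699 CPM. None of these genes was called, and their part in the Olfr values was not tested. With limma voom, 132 of 1355 Olfr genes (9.74%) were called, all higher with BAY, beside 3.68% of all genes. The Olfr share was thus below that of all genes on the deposited values and above it with limma voom. Olfr77, called lower in muscle, had 20.8, 85, 41.1 and 107 reads in VEH-treated bone and 65, 58, 62.8 and 100 reads in BAY-treated bone, with overlapping groups.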

How the data were processed

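Bulk RNA-seq of 16 mouse libraries (4 VEH and 4 BAY in TA muscle and in cortical bone) was used, each assigned by its label. According to the paper's methods, the authors prepared libraries with a stranded poly(A) kit, trimmed reads, aligned them with STAR (version 2.7.8a in the labels) to mm39, quantified Ensembl release 104 genes by the E/M method of Partek Flow, and deposited log2 values of CPM plus an offset. Use of strand in counting is not given in the sources used here. The lowest values put the offset at 0.0004 in muscle and 0.0001 in bone. Muscle RNA was extracted with a Maxwell kit and bone RNA with TRIzol.

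Reads were recovered from the step of 1 read per library; 81.3% to 88.5% of values up to 50 reads were whole to within 0.02. A gene had reads in a library at 1 read or more (0.5 after E/M splitting). BAY was compared with VEH by limma (version 3.58.1, R 4.3.3) on the log2 values of all genes as deposited, with a trend in eBayes and neither filter nor covariate, and with Benjamini-Hochberg adjustment. The study's rule (P under 0.05, fold change of at least 2) gave the calls. The paper names limma-voom, which was run on recovered reads as an alternative. Single genes were also tested by exact permutation of CPM (two-sided, 70 assignments, 43 genes). The values had the unit that the planned tests assumed. The fits were tested on simulated data.

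Exons, overlaps and transcripts came from GENCODE M39 on GRCm39, matched by gene ID for 1353 of 1355 Olfr genes. Shared sequence was found with blastn (version 2.17.0) at 95% identity over 200 bases. Python 3.11.15 with pandas 2.3.3, numpy 2.4.6 and matplotlib 3.10.9 was used. Alternatives were a pseudocount of 1 or 0.1 CPM, a mean of 1 CPM, 10 reads in total, median centring, quantile normalization, no trend, voom, a replicate block and each library left out, other detection and reference limits, and, added after seeing the data, the Gm67348 exon length. Genes named are those with reads in at least 6 muscle libraries, called, or among the 5 highest, with called or core genes of the cascade, and other members by counts, and genes sharing their sequence were named after their values were seen. Some results are not reported here. The members and lists were chosen with earlier results of these data known.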

Additional observations from a re-analysis of the deposited data

Results flagged for a closer look

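Of 46 groups of 4 libraries examined for a library standing apart (the named genes in muscle and the summed Olfr genes in both tissues), 1 met Dixon's criterion, and chance gives about 1 in 20. The summed Olfr genes of bone BAY replicate 4 stood at 35168 CPM, with 12002 CPM in the next of its group, a gap of 0.930 of the group's range. The reference genes were also highest in this library, at a median of 7.76 CPM per kb.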

How the results depend on the processing

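Olfr77 was called under all 17 alternatives (log2 fold change -2.05 to -1.13). The count of 4 called Olfr genes in muscle was 1 with log2(CPM + 1), with a mean of at least 1 CPM and with at least 10 reads, 6 with limma voom (adding Olfr243 and Olfr458), and 2 to 3 with 1 library left out, 2 without BAY replicate 4. Calls over all muscle genes moved from 510 to 52, 193 and 328 in these first 3 alternatives and to 700 with limma voom. They were 448 to 567 with 1 library left out. The 3 Olfr calls in bone became 1 with log2(CPM + 1), a mean of 1 CPM or 10 reads, 5 with median centring, 13 with quantile normalization, 132 with limma voom, and 2 to 31 with 1 library left out, 31 without VEH replicate 2. Calls over all bone genes moved from 249 to 195, 82 and 119 in the first 3 of these. They were 443 with median centring, 705 with quantile normalization, 1433 with limma voom and 1116 without VEH replicate 2. The 20 genes with reads in most muscle libraries became 9 at 3 reads, 11 in 8 libraries and 34 in at least 4, and 15 to 18 with 1 library left out. The limit of 6 libraries was kept when 1 was left out, so that count could not rise. The 11 above reference genes in bone became 4 at their 99th percentile and 8 to 12 with 1 library left out, 8 without BAY replicate 1. A replicate block gave 4 Olfr calls in muscle and 3 in bone, beside 489 and 305 calls over all genes. The numbers belong to different mice, and deviations of same-numbered libraries correlated at -0.10 to 0.04 in muscle and -0.08 to 0.49 in bone. Log2 fold changes near 0 changed sign. With 1 library left out they ran from -0.0797 to 0.305 for Olfr55 (below 0 without VEH replicate 3), -0.0230 to 0.343 for Olfr1564 (without BAY replicate 1 or 3), -0.0662 to 0.310 for Olfr78 (without VEH or BAY replicate 3), -0.256 to 0.0995 for Olfr558 (above 0 without VEH replicate 3 or BAY replicate 4) and -0.503 to 0.430 for Olfr482 (below 0 without VEH replicate 2 or 4 or BAY replicate 1 or 4). Quantile normalization gave -0.0767 for Olfr78 and -0.0506 for Olfr482, which stood at -0.0337 and -0.0305 with log2(CPM + 1) and log2(CPM + 0.1) and at -0.0481 with median centring. The causes were not tested.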

Other observations

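Other chemosensory receptor genes were also counted in muscle. The muscle table holds 6 Vmn1r, 13 Vmn2r, 2 Tas1r and 3 Tas2r genes and no Taar gene. The Vmn1r genes together had 3 to 11 reads per library and the Vmn2r genes 11.2 to 21.4. Of these, 2 Vmn1r genes were called higher (Vmn1r218 and Vmn1r55, with 0 to 4 reads per library) and 1 Vmn2r gene lower with BAY (Vmn2r57, with 0 to 5.82 reads), all named after their values were seen. Each had a library at 0, so the fitted fold changes depend on the offset. Vmn1r218 had 0 reads in every VEH library and reached the 5-read limit of the table through BAY alone. Of all muscle genes 1.33% were called higher and 1.09% lower, and groups did not overlap for 5.73%. Tas1r3, a subunit of the sweet and umami taste receptors and singled out here after its values were seen, had 28, 32, 11 and 44 reads in VEH replicates 1 to 4 and 57, 41, 55 and 53 reads in BAY replicates 1 to 4. It was higher in every BAY library than in any VEH library on the CPM scale, at 7.26 ± 0.492 against 3.54 ± 1.77 CPM (SD, n = 4 each), and was called (limma log2 fold change 1.23, SE 0.38, adjusted P = 0.328; exact permutation P = 0.0286). Tas1r1, its partner in the umami receptor, had 6, 17, 12 and 2 reads in VEH and 6, 10, 10 and 7 in BAY, with overlapping groups.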
